A study of Homo sapiens
Mus musculus and Homo sapiens with 2 samples.

Results

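The cells described here were the A549 cells with the most RNA counts. Within each dexamethasone time, all cells were ranked by the sum of their whole RNA counts, and those in the highest 25% were chosen by this sum: 1849 of 7404 A549 cells, in a series of 13711 cells. They are called high-count cells, and the 1849 cells of the lowest 25% at the same times are called low-count cells. A549 is an established human lung adenocarcinoma line. Its cells received dexamethasone, a synthetic glucocorticoid, for 0, 2, 4, 6, 8 or 10 h (100 nM in the protocol, 101 nM in another label), and the controls at 0 h received ethanol. Every culture also took up 200 µM of the uridine analog 4-thiouridine over its last 2 h, so that RNA made in that window could be counted apart by sci-fate as new RNA. There was 1 culture per time, and no unlabelled A549 cells were analysed here, so the background of the new RNA call in this line is not known. The 6 cultures serve as 6 paired replicates of the contrast between high-count and low-count cells, and cells were never counted as replicates.

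A cell's RNA content grows with its volume and over the cell cycle, and larger cells make more RNA per unit time, so that the concentration of most mRNAs is held nearly constant. Genes of DNA replication are switched on before and during S phase, and genes of mitosis are switched on in G2. More counts from a cell can mean more RNA in the cell or more of its RNA captured, and these cannot be told apart from the counts.

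The counts that chose the cells are given as a description. The median high-count cell held 40700 to 45645 whole counts, depending on the culture, and the median low-count cell 15490 to 17464. The ratio of the medians was 2.46 to 2.69. High-count cells held 38.9% to 40.4% of all counts of their culture, and low-count cells 12.8% to 14.0%. The lowest high-count cell of a culture had 33616 to 37779 counts, and the next cell below it 33606 to 37694, so the cells just inside and just outside the limit hardly differed. The groups held 261 to 361 cells per culture, with 11602950 to 17261477 summed whole counts in high-count cells and 3777787 to 5691722 in low-count cells. Summed new counts ran from 2464891 to 4039675 and from 714312 to 1223859.

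Markers of A549 cells, such as the keratins KRT8 and KRT18 and the aldo-keto reductase AKR1B10, summed to 22410 to 27560 CPM (counts scaled to a common library total) in high-count cells and 27280 to 35460 in low-count cells. Markers of HEK293T, the human line of the other sample, summed to 83.4 to 331 and 83.7 to 351, and 3 of its 8 markers stayed under 1 CPM. The marker CKB alone gave 32.6 to 282 and 41.8 to 304 of these CPM. In new RNA CKB went from 4.50 at 0 h to 85.2 CPM at 4 h of dexamethasone in high-count cells, and from 5.85 to 118 in low-count cells. Fibroblast markers summed to at most 26.2, leukocyte markers to at most 16.7 and endothelial markers to at most 2.36 CPM in either group. The authors' doublet score had a median of 0.0751 ± 0.0049 in high-count and 0.0521 ± 0.0047 in low-count cells (SD, n = 6 cultures), and 14.0% against 3.79% of the cells lay in the highest 10% of the scores of their culture. No cell was left out on this score, whose highest value was 0.192.

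**Figure D1:**
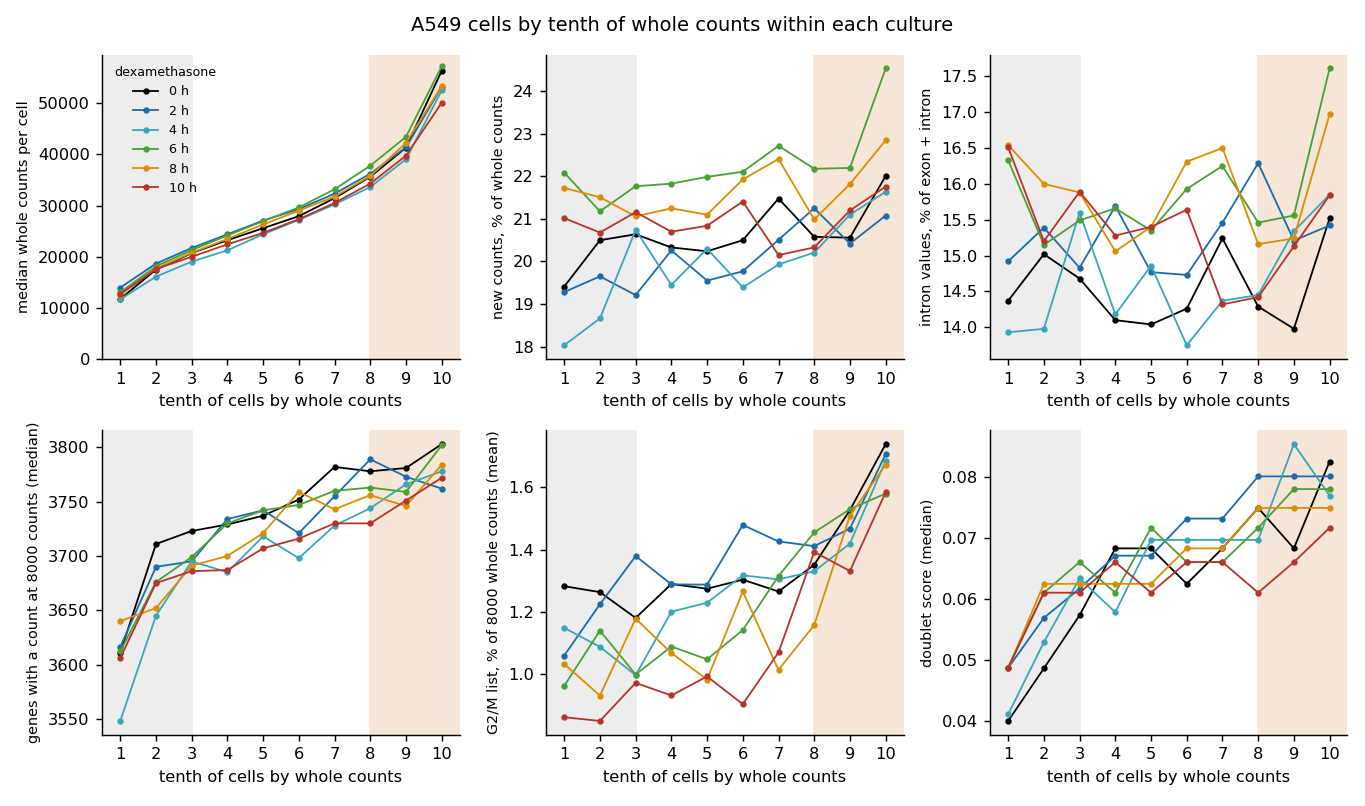
The 6 panels show the cells of each culture in bins of 10% by whole counts: median whole counts per cell, new share, intron share, genes detected in cells thinned to 8000 counts, share of the G2/M gene list in those thinned counts, and median doublet score. Each line is 1 culture, grey marks the lowest and orange the highest 25%. The G2/M share is highest in the top bin of every culture (1.58% to 1.74%), while the new and intron shares of the 6 cultures overlap between neighbouring bins.

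The first question was whether high-count cells are scaled-up copies of low-count cells or differ in the make-up of their RNA. To keep a gene's own counts out of the ranking that tests it, the genes were dealt into 2 sets, and each gene was tested in groups ranked by the counts of the other set, which held 98.1% to 98.4% of the same cells. Levels below are CPM in the high-count and low-count cells themselves, and folds and adjusted p-values come from the cross-ranked fit (edgeR quasi-likelihood test with a term for each culture, Benjamini-Hochberg over all genes). In whole RNA 2494 of 15250 genes were higher and 2402 lower in high-count cells, 32.1% in all, with 16.4% higher and 15.8% lower. Most differences were small: 95 of the higher and 82 of the lower genes passed 2-fold, and 90% of all log2 folds lay between -0.53 and 0.46 around a median of -0.01.

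Among genes that averaged at least 20 CPM and had the same sign in 6 of 6 cultures, the largest rise was that of KIRREL3, a cell adhesion molecule of the immunoglobulin superfamily. In high-count cells its level was 70.6 to 202 CPM with a median of 97.7, and in low-count cells 14.1 to 55.1 with a median of 33.4. The groups did not overlap, and the cells between them, split at their median rank, lay in order at 45.1 and 73.9. Its log2 fold was 1.81 ± 0.08 (SE, adjusted p = 1.11e-12), higher in 6 of 6 cultures. CCNF, the cyclin F gene, whose product acts in a ubiquitin ligase in G2, stood at 50.7 to 63.9 (median 59.9) against 15.8 to 24.2 (median 20.8) CPM, without overlap. Its log2 fold was 1.51 ± 0.07 (adjusted p = 1.60e-12).

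Other genes of cell-cycle progression were among the 10 largest rises. FBXO5, which restrains the anaphase-promoting complex, was at 57.7 to 79.3 (median 64.9) in high-count and 18.0 to 35.0 (median 25.6) CPM in low-count cells, a log2 fold of 1.39. CDK1, the kinase that drives entry into mitosis, was at 245 to 261 (median 258) against 56.9 to 136 (median 105), a log2 fold of 1.39 ± 0.08 (adjusted p = 7.88e-11). KIF18A, a mitotic kinesin, was at 124 to 154 (median 136) against 43.3 to 74.6 (median 56.0), a log2 fold of 1.27. In none of the 3 genes did the groups overlap.

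The linker histone genes HIST1H1E and HIST1H1D and the core histone gene HIST2H2AC rose by log2 folds of 1.41, 1.39 and 1.29, again without overlap. HIST1H1E stood at 136 to 169 (median 148) against 42.2 to 68.0 (median 60.6) CPM. Histone genes are near-identical copies whose reads can be split between them, so values of single histone genes are uncertain. NPTX1, a neuronal pentraxin gene, stood at 61.1 to 96.3 (median 76.7) against 19.9 to 45.8 (median 34.6), a log2 fold of 1.29. MARCH4, a membrane-bound ubiquitin ligase gene, was the 1 gene of the 10 whose groups overlapped across cultures, at 18.8 to 66.9 against 4.50 to 24.3 CPM. The 10 genes were chosen for a large fold and the same sign in 6 of 6 cultures, which MARCH4 also had. A lack of overlap, here and for the named genes below, follows in part from such a choice. Its share over all genes was not counted.

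Under the same limits the largest fall was that of AQP3, a water and glycerol channel of epithelia. Its level was 4.68 to 38.1 (median 17.3) CPM in high-count and 23.8 to 170 (median 85.3) in low-count cells. The ranges overlapped only across cultures: at 0 h it was 5.10 against 23.8, and at 10 h 37.3 against 170. Its log2 fold was -2.25 ± 0.06 (adjusted p = 1.22e-15), lower in 6 of 6 cultures. AGR2, a secretory-pathway disulfide isomerase of mucus-forming epithelia, was the most abundant of the 10 lower genes, at 224 to 290 (median 249) against 503 to 746 (median 626), a log2 fold of -1.28 ± 0.03 (adjusted p = 3.68e-16).

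The other lower genes included structural, signalling and secreted proteins. KRT4, a keratin of stratified epithelia, was at 21.2 to 32.2 (median 26.6) against 53.6 to 89.8 (median 73.2) CPM, a log2 fold of -1.49. NOTCH3, a Notch receptor, was at 20.1 to 32.2 (median 28.4) against 48.0 to 88.0 (median 70.5), a log2 fold of -1.41. SLPI, a secreted protease inhibitor, was at 14.2 to 23.9 against 30.7 to 67.3, a log2 fold of -1.29. The groups overlapped for none of these 3 genes.

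INSL4, an insulin-like hormone gene, stood at 19.5 to 21.7 against 43.5 to 51.2 CPM (log2 fold -1.23). CEACAM6, a surface glycoprotein gene, and RAP1GAP, which switches off the GTPase Rap1, fell by 1.14 and 1.10 on the log2 scale, with ranges that overlapped across cultures. POC1B-GALNT4, a readthrough gene that shares exons with GALNT4, and the pseudogene AC107016.1 fell by the same 1.14, and both are uncertain because their reads cannot be assigned to them alone. For all 20 genes the medians of the middle groups lay between the extremes, and for all but MARCH4 (18.0 and 16.7) they lay in the same order. No single cell held more than 7.48% of a gene's counts in either group.

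**Figure D2:**
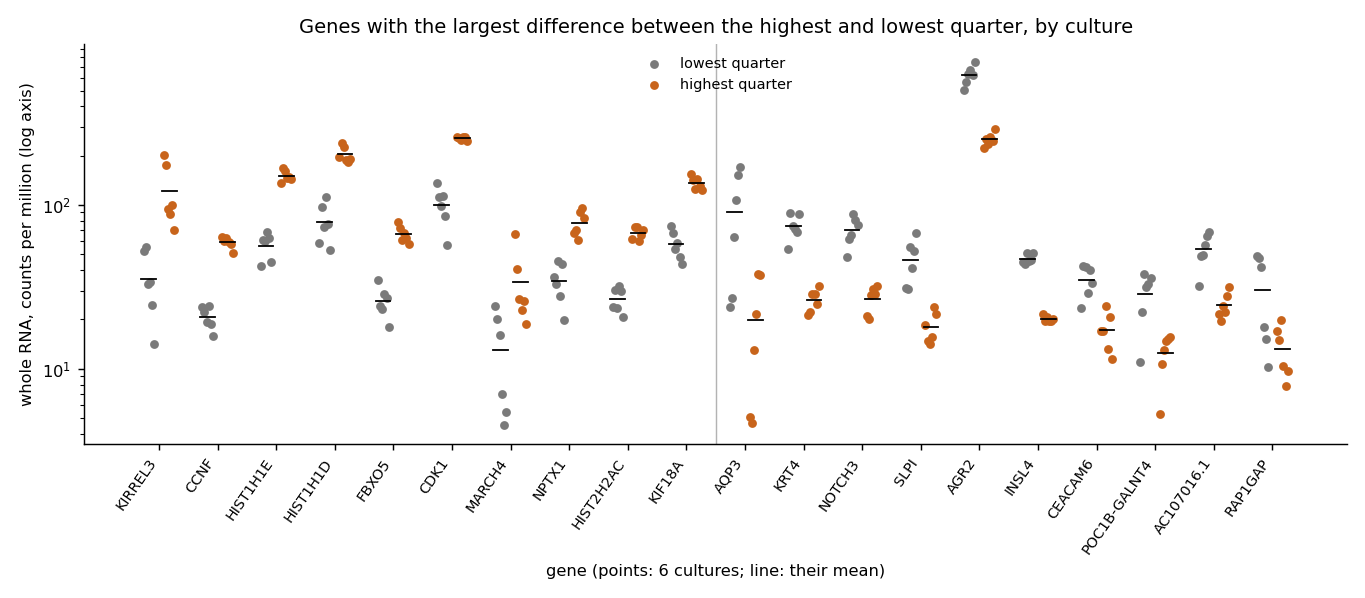
Whole RNA level in CPM (log axis) of the 10 genes with the largest rise and the 10 with the largest fall among those averaging at least 20 CPM with the same sign in 6 of 6 cultures, with 1 point per culture in the order of dexamethasone times, grey for low-count and orange for high-count cells, and lines for the means of 6 cultures. CDK1 stays within 245 to 261 in high-count cells while low-count cells spread from 56.9 to 136, and AQP3 lies higher at later times in both groups.

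The gene lists are described by their counts, to be read against the 16.4% higher and 15.8% lower over all genes. Their summed levels were tested by an exact permutation test over 6 cultures, whose smallest p is 0.0312. Adjusted over 60 tests this smallest p became 0.0552 here. No list passed, however large its difference, so this test cannot decide for any list. Of 56 G2/M genes 51 were higher and 0 lower in whole RNA, with a median log2 fold of 0.60 against -0.01 over all genes tested. CKAP2L, a spindle protein gene, stood at a median of 125 against 56.0 CPM (log2 fold 1.18), CDCA2, which targets a phosphatase to chromatin, at 203 against 93.2 (1.16), and HJURP, the loader of the centromeric histone, at 108 against 46.0 (1.13). Together the list took 1.54% ± 0.05 of the counts of high-count and 1.11% ± 0.14 of low-count cells (SD, n = 6 cultures), higher in 6 of 6. As a share of cells, 35.4% of high-count and 19.5% of low-count cells were in the highest 25% of the G2/M share of their culture after thinning to 8000 counts.

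S-phase genes were higher too, 30 of 46 with 3 lower and a median of 0.28, but against the middle 50% of cells in place of the low-count cells 10 were higher and 17 lower. RRM2, a subunit of ribonucleotide reductase, was at 499 to 555 (median 515) against 276 to 385 (median 342) CPM, a log2 fold of 0.61 ± 0.05 (adjusted p = 1.69e-08). The exonuclease gene EXO1 rose by 0.82 and the transcription factor gene E2F8 by 0.85 on the log2 scale. The 3 lower S-phase genes were CDCA7, UNG and MCM2, with log2 folds of -0.24, -0.20 and -0.17. Per thinned cell the list's mean share over cultures was 0.36% in the lowest 10% of cells, 0.51% in the bin next to the top and 0.45% in the top bin. Of the G2/M genes 53 of 56 were higher and 0 lower against the middle cells.

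Of 25 histone genes tested 14 were higher and 3 lower, with a median of 0.52. HIST1H1B, low in abundance, was at 17.9 to 23.1 against 2.64 to 7.38 CPM (log2 fold 2.13 ± 0.17, adjusted p = 4.31e-09). The 3 lower ones were HIST1H2BK (-0.91), HIST1H2AC (-0.35) and HIST1H2BD (-0.33), so members of the list did not move together. Of 30 actin cytoskeleton genes 17 were higher and 3 lower (median 0.11): VCL, which links actin to adhesions, was at a median of 580 against 398 (log2 fold 0.47), and the tropomyosin gene TPM1 at 811 against 594 (0.48). MYL9 and TAGLN, smooth-muscle contractile genes, had larger folds of 1.94 and 0.94 from medians of 2.34 and 22.6 against 0.76 and 13.3 CPM. Of 23 p53 targets 8 were higher and 1 lower, among them PLK2 (0.65) and GADD45A (0.44). Ribosome assembly genes (16 higher, 4 lower of 37, median 0.07) and chromatin genes (13 and 1 of 29) were more often higher than lower, and cholesterol synthesis genes moved both ways (7 and 5 of 24). Lists of translation factors (9 higher, 2 lower of 36), splicing factors of the SR and hnRNP families (8 and 8 of 36), RNA polymerase II factors (8 and 6 of 33) and tRNA synthetases (4 and 3 of 20) had medians of 0.01 to 0.06 and shares of called genes near or above the 32.1% of all genes.

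Lists with more lower than higher genes included those of redox defence, glycolysis, respiration, secretion and the line's own epithelial markers. Of 25 targets of NRF2, the regulator of the oxidative stress response, which is constitutively active in A549, 19 were lower and 1 higher (median -0.24). AKR1B10 was at 2778 to 3421 (median 3163) in high-count and 3729 to 5090 (median 4800) CPM in low-count cells, without overlap (log2 fold -0.55 ± 0.03, adjusted p = 8.65e-12). AKR1C3, which has close paralogs that can share reads, was at a median of 1779 against 2668 (-0.56), and GCLC, for glutathione synthesis, at 162 against 213 (-0.45). The list took 2.41% of whole counts in high-count and 3.04% in low-count cells, lower in 6 of 6 cultures.

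Of 16 A549 epithelial markers, a list that shares some genes with the NRF2 targets, 12 were lower and 1 higher (median -0.47). ALDH3A1, an aldehyde dehydrogenase gene, was at 707 to 951 (median 798) against 1251 to 1573 (median 1453), without overlap (log2 fold -0.80 ± 0.04, adjusted p = 3.55e-12). S100P, a calcium-binding protein gene, was at a median of 91.8 against 182 (-0.96), and CDH1, the E-cadherin gene, at 16.4 against 25.3 (-0.61). CLDN1, a tight junction gene, was the 1 marker that was higher (0.40).

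All 18 glycolysis genes tested were called, 14 lower and 4 higher, with a median of -0.20. SLC2A1, the main glucose transporter gene, was at 92.6 to 106 (median 99.1) against 134 to 165 (median 157), without overlap (log2 fold -0.59 ± 0.05, adjusted p = 1.80e-08), and HK1, a hexokinase gene, at a median of 66.4 against 97.7 (-0.52). The 4 higher genes were ENO2 (0.42), SLC2A3 (0.31), PGAM1 (0.22) and PFKP (0.14). Of 47 nuclear genes of the respiratory chain 32 were lower and 0 higher (median -0.14), but 13 lower and 1 higher when cells were ranked within the index part of their names. Examples are COX6A1 at 92.7 against 121 and COX5B at 166 against 215 CPM. Of 20 ER chaperone genes 14 were lower and 0 higher (median -0.18), but 1 lower against the middle 50% of cells, with HSP90B1 at a median of 974 against 1144 (-0.23), and of 33 genes of Golgi transport 18 were lower and 0 higher (median -0.11), but 4 lower against the middle 50%.

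Ribosomal protein genes showed small differences whose direction depended on how cells were ranked. Of 78 genes 34 were lower and 1 higher, with a median of -0.07, but 2 were lower and 27 higher, with a median of 0.05, when cells were ranked within the second part of their names. RPL30 stood at a median of 1086 against 1257 CPM (-0.21). The second part of a cell's name has the length of the cell index that the protocol describes, and each of its 378 values occurred at 1 time only, with median counts per cell from 3971 to 42709. The proteasome list changed in the same way, from 14 lower and 1 higher to 3 lower and 3 higher of 32, and the chromatin list from 13 higher and 1 lower to 5 higher and 6 lower of 29. The G2/M list (52 higher, 1 lower), the S-phase list (33 and 1), the NRF2 list (1 and 17) and the glycolysis list (3 and 13) kept their direction within indexes.

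**Figure D3:**
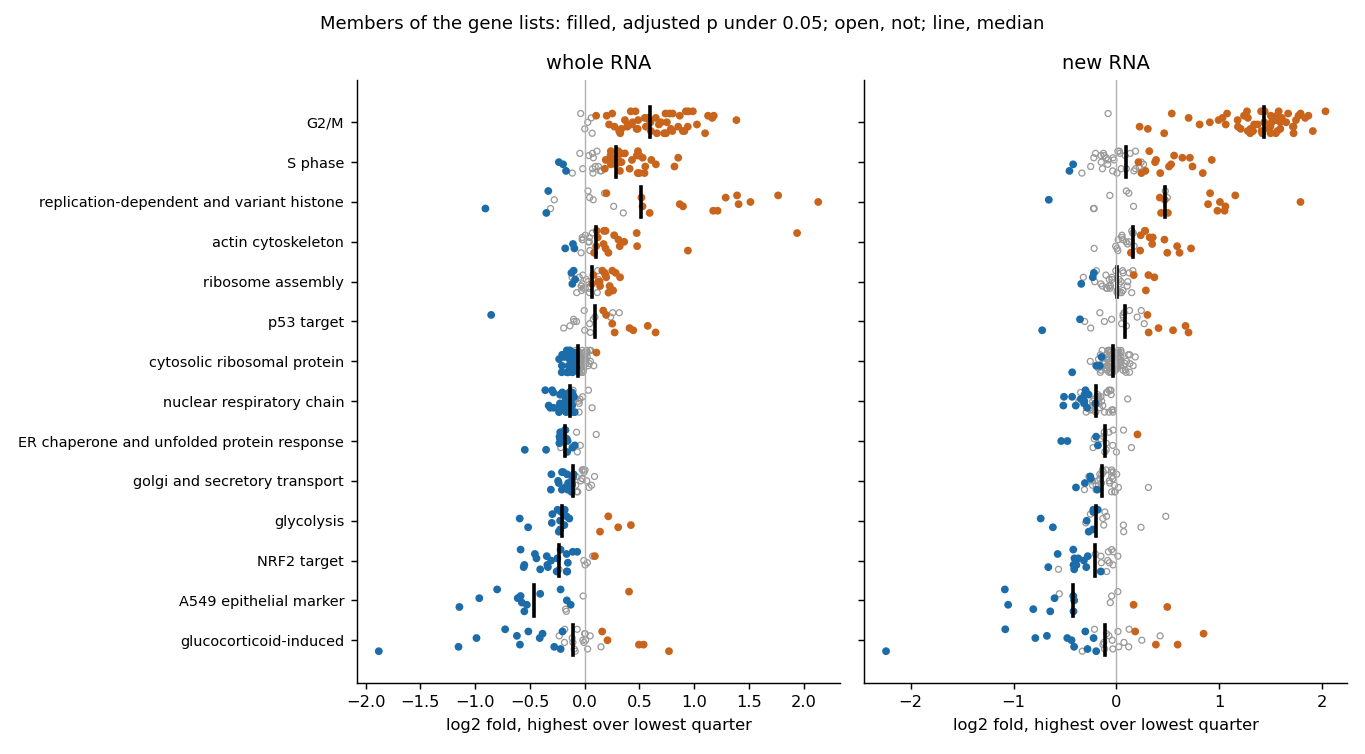
Log2 fold of high-count over low-count cells for each tested member of 14 gene lists in whole RNA (left panel) and new RNA (right panel). Filled points passed an adjusted p of 0.05, open points did not, and the black line is the list's median. The G2/M median is 0.60 in the left and 1.44 in the right panel, and the medians of the NRF2, glycolysis and A549 marker lists lie left of 0 in both.

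The next question was which RNAs high-count cells were making during the 2 h of labelling. In new RNA 1292 of 11830 genes were higher and 1006 lower, 19.4% in all, with 10.9% higher and 8.5% lower. Without TMM scaling, by library size alone, the split was 1028 higher and 1361 lower, so the balance of higher and lower genes depends on the scaling. Past 2-fold there were 179 higher and 59 lower genes, against 95 and 82 in whole RNA.

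Nearly all genes of the G2/M list were higher in new RNA. Of 56 G2/M genes 55 were higher and 0 lower, with a median log2 fold of 1.44. DLGAP5, a spindle assembly gene, was at 157 to 185 (median 172) new CPM in high-count and 31.7 to 56.4 (median 41.1) in low-count cells, a log2 fold of 2.03 ± 0.10 (adjusted p = 5.39e-18). CENPE, the kinetochore motor, was at 376 to 450 (median 399) against 103 to 146 (median 107), a log2 fold of 1.79 ± 0.07 (adjusted p = 1.82e-20). PLK1, the polo-like kinase of mitosis, was at 123 to 158 (median 130) against 20.9 to 51.5 (median 43.1), a log2 fold of 1.83. In all 3 genes each culture's high-count cells lay above every low-count value.

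The G2 and mitosis genes GTSE1 and CKAP2L, the cell-cycle gene PRR11 and the DNA helicase gene PIF1 rose by log2 folds of 1.91, 1.87, 1.82 and 1.88, and CCNF by 2.00, all without overlap. The other 2 of the 10 largest rises in new RNA had the largest folds among them. KIRREL3 was at 160 to 475 (median 202) against 21.7 to 118 (median 52.2) new CPM (log2 fold 2.15 ± 0.09, adjusted p = 5.83e-19). CCBE1, a matrix protein gene of lymphatic growth, was at 31.6 to 72.2 against 5.60 to 19.1 (2.04). The G2/M list as a whole took 1.29% ± 0.10 of new counts in high-count and 0.554% ± 0.093 in low-count cells (SD, n = 6 cultures).

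S-phase genes were less uniform in new RNA: 15 of 46 were higher and 2 lower, with a median of 0.09, and against the middle 50% of cells 2 were higher and 18 lower. RRM2 rose by 0.93 ± 0.08 (adjusted p = 6.33e-12), from a median of 234 in low-count to 383 new CPM in high-count cells. Of 21 histone genes 12 were higher and 1 lower, including H2AFX, a variant that marks DNA breaks when phosphorylated, at a median of 122 against 65.5 (1.06). Of 28 actin cytoskeleton genes 13 were higher and 0 lower, with ACTB at 587 against 455 (0.49), MYH9 at 228 against 147 (0.59) and ZYX at 58.0 against 36.4 (0.72).

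Under the same limits of 20 new CPM and 6 of 6 cultures, the largest fall in new RNA was that of CORO2A, a coronin gene. It was at 2.08 to 22.7 (median 14.4) against 8.19 to 101 (median 52.5) new CPM, with ranges that overlapped across cultures and a lower value in high-count cells of 6 of 6 (log2 fold -1.99 ± 0.14, adjusted p = 3.96e-13). GPX2, a glutathione peroxidase gene, was at 34.4 to 58.1 (median 40.8) against 117 to 162 (median 139), a log2 fold of -1.61, and AGR2 at 34.3 to 50.6 (median 44.4) against 95.9 to 154 (median 134), a fold of -1.55. The Wnt inhibitor gene RNF43, NOTCH3 and SESN3, a target of FOXO factors, fell by 1.11, 1.10 and 1.17 on the log2 scale without overlap. F2RL2, GSN and GALNT4 fell by 1.18, 1.17 and 1.12 with overlap across cultures, and the noncoding RP11-806O11.1 fell by 1.13.

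Of 14 A549 markers tested in new RNA 8 were lower and 2 higher. The keratin genes KRT18 and KRT8, partners in one filament, were at medians of 691 against 1319 (-0.81) and 1109 against 1874 (-0.64) new CPM. Of 25 NRF2 targets 12 were lower and 0 higher, and of 18 glycolysis genes 8 were lower and 0 higher. Immediate early genes, which respond to stimuli within minutes, gave 7 higher and 9 lower of 32, but 11 and 2 of 31 within name indexes and 7 and 2 against the middle 50% of cells. CYR61, a target of the YAP pathway, was at a median of 190 against 112 (0.90) and FOSL1 at 76.9 against 49.0 (0.87), while HES1, a Notch target, was at 20.0 against 44.9 (-0.91).

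A direct test asked for which genes the ratio of new to pre-existing RNA (whole minus new counts) differed between the groups, beyond the shift of all genes. Of 14166 genes 422 had a higher and 242 a lower ratio in high-count cells, 4.69% in all, with 2.98% higher and 1.71% lower. By library size alone the split was 314 higher and 675 lower, with TMM over both kinds of RNA together, a scaling added after the data were seen, 545 and 141, and the lower genes were 161 without the 6 h and 148 without the 10 h culture. Of 56 G2/M genes 52 had a higher ratio and 0 a lower one, with a median of 0.88, and 48 to 54 had a higher ratio under these scalings and DESeq2. In DLGAP5 15.1% of counts were new in high-count and 4.72% in low-count cells (1.78 ± 0.10, adjusted p = 8.53e-36). PTTG1, the securin gene, had 11.8% against 3.56% (1.77), CDKN3 11.8% against 4.10% (1.61), IQGAP3 16.1% against 5.99% (1.61) and CCNB2, a mitotic cyclin gene, 14.5% against 5.05% (1.60). The whole RNA of PTTG1 stood at a median of 123 in high-count and 137 CPM in low-count cells, a small fall (log2 fold -0.13, adjusted p = 0.0307), and that of CDKN3 at 102 and 103 (-0.01, adjusted p = 0.909).

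S-phase genes went the other way: 11 of 46 had a lower and 1, RRM2, a higher ratio, with a median of -0.18. By library size alone, with joint TMM and with DESeq2 the lower ones were 12, 8 and 3, and the median stayed negative, at -0.24 to -0.14. Those with a lower ratio included the replication genes MCM4 (-0.35), MCM6 (-0.32), MCM7 (-0.37), PCNA (-0.20) and CLSPN (-0.49). Of 25 histone genes 5 had a higher and 2 a lower ratio, the latter being HIST1H1E (-0.57) and HIST1H1D (-0.31), whose new shares were 9.55% against 12.8% and 29.1% against 33.2%. HIST1H2AC, lower in whole RNA, had the largest rise of the list (1.39). The 5 largest falls were in AC027763.2, a protein-coding gene by its annotation (-0.88, 12.3% against 20.2% new), GPR137 (-0.83), DDX60L (-0.72), SVIP (-0.68) and MUT (-0.67).

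**Figure D4:**
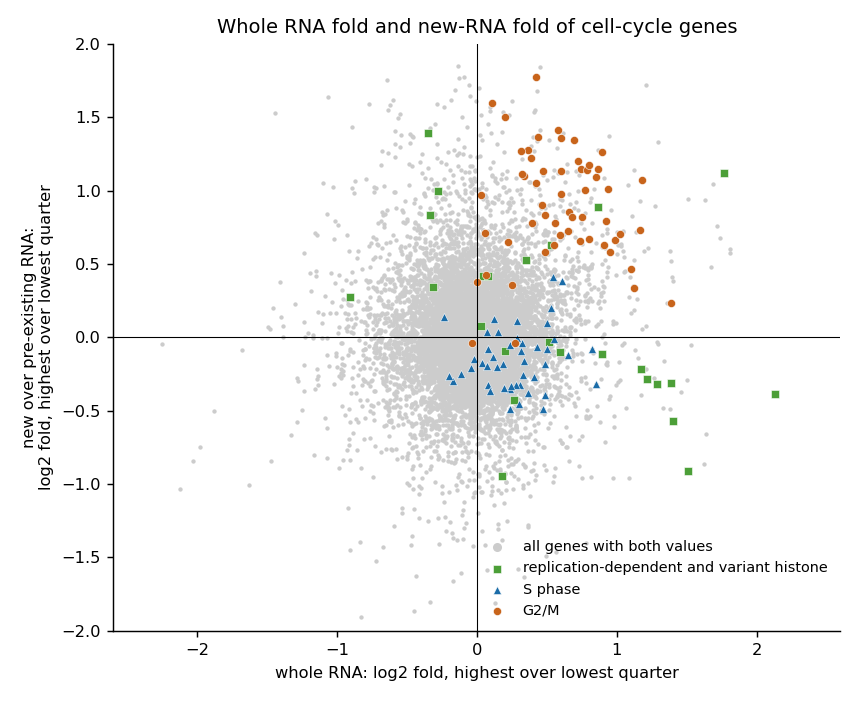
Each point is 1 gene, with its whole RNA log2 fold on the horizontal axis and the log2 fold of new over pre-existing RNA on the vertical axis, high-count over low-count cells. Of 14014 genes with both values 37 lie outside the axes. G2/M genes (circles) lie to the upper right with medians of 0.60 and 0.88, and S-phase genes (triangles) have medians of 0.28 and -0.18.

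The overall share of new RNA was higher in high-count cells when cells were ranked by whole counts. It was 20.8% to 23.4% of counts in high-count and 18.8% to 21.5% in low-count cells, with means of 21.7% ± 0.92 and 20.4% ± 1.09 (SD, n = 6 cultures). The difference was 1.33 percentage points, positive in 6 of 6 cultures (exact two-sided sign-flip permutation test, p = 0.0312, the smallest that 6 cultures allow, adjusted over 3 values 0.0469). Cultures differed from 0.29 points at 10 h to 2.49 at 4 h. Ranked within name indexes the difference was -0.21 points, positive in 2 of 6 (exact sign-flip permutation test, p = 0.219), and ranked by pre-existing counts it was -0.93, negative in 6 of 6. Ranked by new counts it was 7.69 points. Ranking by new counts raises this share by construction and ranking by pre-existing counts lowers it, so neither is a test of it.

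The intron share, a sign of unspliced RNA, was 15.6% ± 0.60 of exon and intron values in high-count and 15.3% ± 0.71 in low-count cells (SD, n = 6 cultures). The difference of 0.37 points, positive in 5 of 6 cultures, did not pass the exact sign-flip permutation test (p = 0.219). It was -1.27 points within name indexes and -2.13 when cells were ranked by exon values, a ranking that lowers this share by construction, negative in 6 of 6 cultures each time. Of intronic values 67.7% were new in high-count and 64.3% in low-count cells, and of exonic values 13.1% and 12.4%, each higher in 6 of 6 cultures.

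**Figure D5:**
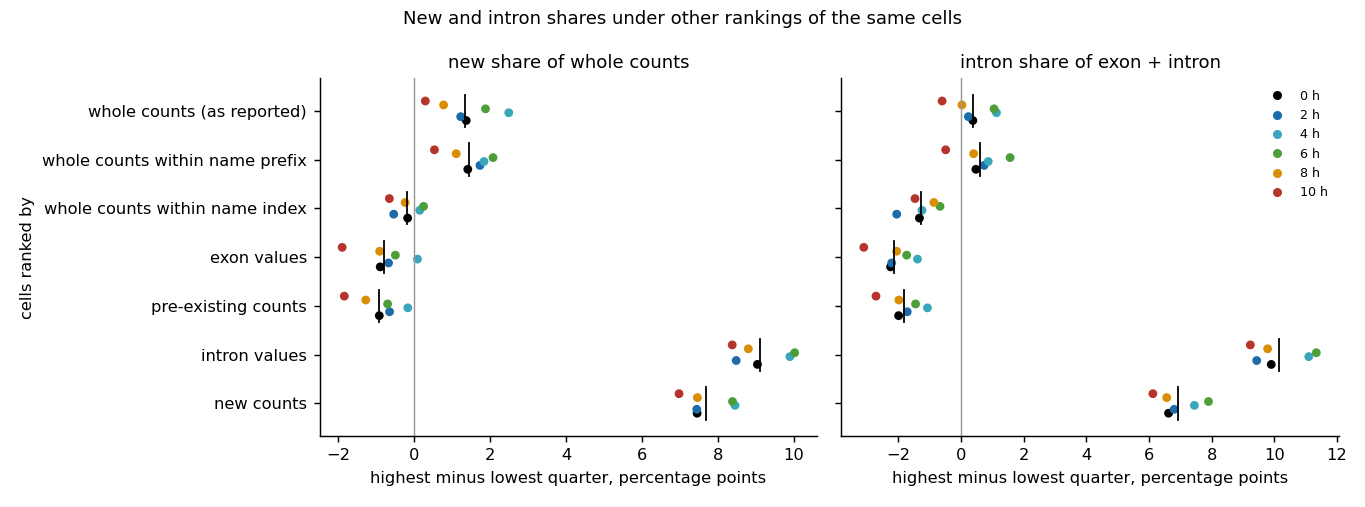
Difference in new share (left) and intron share (right) between the highest and lowest 25% of cells, in percentage points, when the same cells are ranked by other counts. Each point is 1 culture and the line is the mean of 6. Ranking by whole counts gives 1.33 and 0.37 points, ranking by pre-existing counts -0.93 and -1.82, and ranking by new counts 7.69 and 6.91.

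More genes were also detected in high-count cells at equal depth. After each cell was thinned to 8000 whole counts, which left out 91 low-count cells and 0 high-count cells, the median cell had 3771 ± 13 genes against 3656 ± 25 (SD, n = 6 cultures). The difference of 115 genes was positive in 6 of 6 cultures (exact two-sided sign-flip permutation test, p = 0.0312, adjusted 0.0469). Without thinning the medians were 8155 and 5362. The difference at equal depth was not computed within name indexes or without cells of high doublet score.

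Some RNA classes differed in small ways that ran through all cultures in whole RNA. Pseudogenes (share higher in 4 of 6 cultures) and genes typed sense intronic (higher in 2 of 6) did not. Antisense genes took 0.602% ± 0.010 of whole counts in high-count and 0.689% ± 0.008 in low-count cells, lower in 6 of 6 (SD, n = 6 cultures). Of 884 antisense genes 159 (18.0%) were lower and 14 (1.58%) higher, with a median log2 fold of -0.24. No source used here says how the counting used strand, so these reads may belong to the genes opposite them. Noncoding lincRNA genes took 1.60% against 1.47% of whole counts, higher in 6 of 6, but 1.841% against 1.843% of new counts, higher in 4 of 6. In whole RNA 52 of 618 (8.41%) were higher and 89 (14.4%) lower, against 16.4% and 15.8% of all genes. A single abundant gene, MALAT1, a nuclear noncoding RNA, accounted for 4495 to 5823 (median 5304) against 3551 to 4385 (median 4095) CPM, without overlap (log2 fold 0.33 ± 0.02, adjusted p = 8.36e-10).

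Gene span and the new share of a gene's RNA moved with the direction of change. Of 3238 genes spanning over 100 kb 809 (25.0%) were higher and 372 (11.5%) lower in whole RNA. Of 3109 genes under 10 kb 248 (7.98%) were higher and 619 (19.9%) lower. Over all genes 16.4% were higher and 15.8% lower. Of 2393 genes with under 10% new counts 168 (7.02%) were higher and 855 (35.7%) lower, with a median of -0.11. Of 5234 genes with 30 to 60% new counts 1054 (20.1%) were higher and 506 (9.67%) lower. These shares, and those of the RNA classes above, were not counted with cells ranked within name indexes. Under that ranking the overall new share differed by -0.21 and the intron share by -1.27 points. The part of the name index in the class shares was not tested.

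The calls were read against the other features that move with counts. Without cells in the highest 10% of doublet scores, 2424 genes were higher and 2371 lower in whole RNA. Without cells in the highest 25% of the S or G2/M share, which left 3782 of 7404 cells, 1699 were higher and 1614 lower, and 45 of 56 G2/M genes were still higher with 1 lower. CEACAM6 lost its call there (log2 fold -0.55), as did RP11-806O11.1 in new RNA (-0.34). Within name indexes 2545 were higher and 2387 lower. Of the calls above, 71.6% of the higher and 67.9% of the lower were called there again, and 97.0% had the same direction. These groups held 70.0% of the high-count and 66.7% to 66.8% of the low-count cells, so this is no independent test. The part of library position in these differences was not tested beyond these values.

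The last comparison asked whether high-count and low-count cells responded differently to dexamethasone, with the 0 h culture set against the 5 treated ones. Of 33 glucocorticoid-induced genes in whole RNA the median log2 ratio of treated over 0 h, on CPM plus 1, was 2.06 in high-count and 2.08 in low-count cells, and 2.47 and 2.59 in new RNA over 31 genes. FKBP5, a chaperone of the glucocorticoid receptor, went from 52.8 to 528 CPM in high-count and from 45.0 to 530 in low-count cells. TSC22D3, the leucine zipper gene GILZ, went from 3.40 to 72.5 and from 2.33 to 85.2. The group-by-treatment term gave, gene by gene, the log2 response of high-count minus that of low-count cells. Its median over the 33 genes was 0.18 in whole RNA, and it was above 0 for 22 of them. In new RNA its median was 0.22, and it was above 0 for 20 of the 31 genes. With 1 culture at 0 h, this term cannot decide whether the responses of these genes differ between the groups. In level over all cultures 5 of these 33 genes were higher and 12 lower in high-count cells, against 16.4% and 15.8% of all genes. HSD11B2, which inactivates cortisol, had medians of 7.54 against 29.04 CPM (log2 fold -1.88 ± 0.16, adjusted p = 1.01e-08), lower in 5 of 6 cultures.

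Over all genes 3 of 15250 in whole RNA (0.0197%) and 3 of 11830 in new RNA (0.0254%; 0.0169% with a larger and 0.00845% with a smaller response in high-count cells) passed that term, against 889 and 701 at an unadjusted p under 0.05. In whole RNA these were C2orf15, PTGS2 and MYO16, of which the last 2 are under 20 CPM on average and were chosen after their values were seen. In low-count cells at 0 h C2orf15 stood at 103 CPM, against 29.8 on average in treated cultures, and in high-count cells at 40.9 against 27.1. Of its 441 counts in those low-count cells 318 came from 10 cells of 1 name index, and without that index its level was 29.9. For MYO16 91 of 98 counts came from 1 index of 12 cells, and for PTGS2, the cyclooxygenase-2 gene, 212 of 342 counts came from 1 cell. In new RNA the term was passed by INPP4B, a lipid phosphatase gene (246 in high-count and 58.5 new CPM in low-count cells at 0 h, 122 and 85.1 on average in treated cultures), and, chosen after their values were seen, by PTGS2 and KCNQ5-IT1. The 0 h arm is 1 culture, so these p-values do not show that the responses differ between cultures. With DESeq2 the counts of genes were 3 in whole and 0 in new RNA.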

How the data were processed

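Whole RNA and newly made RNA were counted per cell in 7404 A549 cells by sci-fate, which marks new molecules through T-to-C changes after 4-thiouridine labelling. The deposited tables hold the authors' raw counts per gene and cell, exon and intron values per cell as counts, and a doublet score per cell that the authors computed. The submitters' processing notes name Trim Galore 0.4.1, STAR 2.5.2b, SAMtools 1.3, Picard 1.105 and the builds hg19 and mm10. No source used here says how new molecules were called. Uncorrected sequencing errors or missed conversions would change the new counts.

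Counts were summed over the cells of each group and culture, 12 sums of whole and 12 of new RNA. Genes with enough counts (filterByExpr, at least 10) were tested with edgeR 4.0.16 in R 4.3.3: quasi-likelihood test, TMM scaling, a term for each culture, Benjamini-Hochberg adjustment over all genes tested and a threshold of 0.05. Genes were assigned in turn to 2 sets, and each was tested in groups ranked by the other set. New and pre-existing RNA were compared with TMM within each kind of RNA, so only differences beyond the shift of all genes are tested. DESeq2 1.42.0 was an alternative. The pairing of high-count and low-count cells comes from the design, since both come from 1 culture. The p-values measure the spread between the 6 cultures, which differ in time of treatment. For genes, edgeR estimates that spread with information shared between genes. Very small p-values therefore do not rest on the 6 values of 1 gene alone. Single values were tested by exact sign flips over the cultures.

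Named genes were the 10 with the largest positive and the 10 with the largest negative log2 fold among called genes with the same sign in 6 of 6 cultures and at least 20 CPM, up to 4 per list, and the 5 largest each way for the other tests; others were chosen after their values were seen. The members and lists were chosen with earlier results of these data known. On simulated counts for the same genes, 57.0% of genes changed by 1.25-fold and 82.0% of those changed by 1.5-fold were recovered in whole RNA. In new RNA these rates were 28.5% and 69.0%. Other tests found fewer: the dexamethasone term picked up 32.0% of simulated 1.5-fold differences in whole RNA. When the ratio of a gene's new counts to its older counts was shifted by 1.25-fold, 10.0% of such shifts were found. Each simulation gave all genes 1 common dispersion, set by hand to 0.002 for the ratio, and no difference between cultures. The rates hold for that setting only. Of the full cell names 0 occurred in the other sample. No mitochondrially encoded gene was used here. Levels of single genes are not corrected for length and are compared only between groups.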

Additional observations from a re-analysis of the deposited data

Results flagged for a closer look

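In 5 of 97 values checked over the 6 cultures, 1 culture stood apart: its gap to the nearest other culture, divided by the range of all 6, passed the 95% critical value of 0.625. Chance alone would mark about 1 in 20. The 4 h culture stood apart in the new share of intronic values, where high-count cells exceeded low-count cells by 5.10 points against 2.91 to 3.25 in the others (ratio 0.844), and in the genes detected at 8000 counts, with a difference of 152 against 100.5 to 118 (ratio 0.660). In new RNA of the SR and hnRNP splicing factors the 10 h culture had a log2 ratio of 0.07 against -0.03 to -0.00068 (ratio 0.684). The 2 h culture stood apart in whole RNA of KRT4, at -2.02 against -1.47 to -1.33 (ratio 0.795), and in new RNA of CORO2A, at -1.26 against -2.41 to -2.05 (ratio 0.687).

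For 5 genes, PTGS2 in both kinds of RNA, the term for a different log2 response to dexamethasone passed the threshold (edgeR), with a single culture at 0 h, so the p-values do not show that the response differed. In whole RNA the response of high-count minus that of low-count cells was 1.16 for C2orf15 (adjusted p = 0.000727), 2.54 for PTGS2 (0.000179) and 2.81 for MYO16 (0.00134). In new RNA it was -1.55 for INPP4B (adjusted p = 0.00211), 1.63 for PTGS2 (0.00211) and 2.51 for KCNQ5-IT1 (0.0422). The counts behind the whole RNA values lay in few cells of the 0 h culture: 72.1% of the C2orf15 and 92.9% of the MYO16 counts of low-count cells came from 1 name index each, and 62.0% of the PTGS2 counts from 1 cell. Without these the levels there were 29.9, 1.71 and 30.4 CPM. For INPP4B the name index with the most new counts held 6 of 50 in low-count cells at 0 h.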

How the results depend on the processing

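The 0 h control is 1 culture, so the dexamethasone term assumes that it varies like the treated ones. Without the culture term, that is with no replicate block, 1195 genes were higher and 1179 lower in whole RNA and 463 and 262 in new RNA; the counts with the block are those of the report. With DESeq2 the lower genes of whole RNA were 1518, new RNA had 799 higher and 460 lower, the new-to-pre-existing ratio 216 and 37, and the dexamethasone term in new RNA 0 and 0. Against the middle 50% of cells, an alternative chosen after seeing the data, whole RNA had 1536 and 1193, and 572 genes of new RNA were lower. New RNA had 726 and 583 between the highest and lowest 10%, and 727 and 500 without cells of high S or G2/M share. Lower ratios of new to pre-existing RNA were found for 675 genes by library size alone, 131 without a filter on low counts and 141 with joint TMM, and the dexamethasone term without a filter gave 20 and 23 in whole and 12 and 5 in new RNA. The new share differed by -0.21 points within name indexes, -0.80 ranked by exon values and -0.93 by pre-existing counts. The intron share differed by -1.27, -2.13 and -1.82 under these rankings, by 0.50 against the middle 50%, where it passed the exact permutation test, and by 10.1 ranked by intron values and 6.91 by new counts, which raise it by construction and are no tests of it.

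Leaving out 1 culture at a time gave 2174 to 2336 higher and 2030 to 2195 lower genes in whole RNA, 1072 to 1206 and 733 to 882 in new RNA, 312 to 372 and 148 to 201 for the ratio (161 lower without 6 h and 148 without 10 h), and for the dexamethasone term 3 to 7 (7 without 10 h) and 0 to 4 (4 without 2 h) in whole RNA and 1 to 5 and 1 to 5 (both 5 without 2 h) in new RNA. The new share then differed by 1.10 to 1.54 points, the intron share by 0.22 to 0.57 and the genes detected by 108 to 118, where 5 cultures allow no exact p under 0.0625. Ranked as in the report, the summed list levels reached no adjusted p under 0.0552 (exact permutation test), with 0 lists called. That value belongs to the smallest exact p that 6 cultures allow. Directions turned for 9 named genes: against the middle 50% ATF3 in whole RNA (0.0283) and E2F7 (-0.0257), RPL30 (0.0110), PES1 (0.0153) and COPB2 (0.01326) in new RNA, without high S or G2/M cells CDKN2C (-0.07947), NEAT1 (0.0745) and HSPA1A (-0.02108), and within name indexes EIF4A1 (0.0240). Within name indexes the summed levels turned for ribosomal proteins (0.0505 in whole, 0.0578 in new RNA), chromatin (-0.009224, whole) and the integrated stress response (0.005739, new). The causes were not tested.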

Other observations

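Genes of the stress and signalling lists that the report does not describe were among the largest falls of their lists in whole RNA: FOS and JUNB, immediate early transcription factor genes, with log2 folds of -1.44 and -0.62 (edgeR adjusted p below the threshold). The immediate early list moved both ways in whole RNA, with 9 higher and 10 lower of 32 and a median of -0.03. In new RNA FOS was low, at 3.11 against 2.34 CPM at 0 h and 5.26 against 11.7 at 10 h. Among the regulators of G1, with 7 higher and 1 lower of 18, CDKN1C, an inhibitor of cyclin-dependent kinases, was lower (-0.73), while CDK6 (0.41) and RB1 (0.37) were higher. CDKN1C was at 0.30 against 0.93 CPM at 0 h and 18.8 against 30.6 on average in treated cultures. TP53INP1, a p53 target, was lower (-0.85) while 8 other targets were higher. In the ER chaperone list HSP90B1 was lower in whole RNA (-0.23) and higher in new RNA (0.20), with a median of 265 against 246 new CPM, and its new share was 6.01% in high-count and 4.25% in low-count cells. Ribosomal RNA genes of the table took 0.175% ± 0.013 of whole counts in high-count and 0.146% ± 0.012 in low-count cells (SD, n = 6 cultures), higher in 6 of 6.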
